A study of Homo sapiens with 2 samples.

Results

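The genes described here encode the nuclear subunits of respiratory complex I and the NDUFAF family of its assembly factors. They were taken from the deposited expression table by symbol: NDUFA, NDUFB, NDUFC, NDUFS or NDUFV followed by a number, the acyl carrier protein NDUFAB1, and NDUFAF followed by a number, without pseudogenes. This gave 47 genes of 57326 symbols, namely 37 subunits, 8 assembly factors, and NDUFA4 and NDUFA4L2. RNA-seq had been run on 22Rv1 cells, a line from a human prostate tumour that grew on after androgen withdrawal. The control library (shCON) came from cells that carried the shRNA vector control, and the knockdown library (shEIF3F) from cells with a short hairpin RNA against EIF3F, which encodes a subunit of the translation initiation factor eIF3. Each group held 1 library, so no difference given below has a replicate check, an error or a test, and effects of the hairpin other than loss of EIF3F cannot be told apart from it. EIF3F stood at 991 TPM in shCON against 17.0 in shEIF3F.

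Complex I is the NADH dehydrogenase of the inner mitochondrial membrane. Its matrix arm takes electrons from NADH in the N module and passes them through iron-sulfur clusters to ubiquinone in the Q module, and its membrane arm pumps protons. Mitochondrial DNA encodes the hydrophobic core of the membrane arm. Nuclear genes supply the core of the matrix arm and all accessory subunits, which surround the core and are needed for assembly and stability. NDUFAF proteins help to build the complex and are not part of the finished enzyme. NDUFA4 is now assigned to complex IV, the cytochrome c oxidase, and NDUFA4L2 is its paralogue. These genes kept their NDUF symbols in the table and are described apart from the subunits.

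Promoters are shown for the 3 lowest and the highest of the complex I genes with an entry in the RefSeq promoter table (GRCh38.p14). NDUFA4 and NDUFA4L2 were left out of this choice. Of the 47 genes, 41 were found in that table. Each line gives the 250 bases before the annotated start, 5′ to 3′ on the gene's strand. Capitals mark exact matches, on either strand, to motifs of 3 factors known from promoters of mitochondrial genes (NRF1, GCGCATGCG; ETS factors, CCGGAAG; YY1, AAGATGGCG) or to the CCAAT box.
NDUFB3, lowest subunit, chr2:201071751-201072000, plus strand: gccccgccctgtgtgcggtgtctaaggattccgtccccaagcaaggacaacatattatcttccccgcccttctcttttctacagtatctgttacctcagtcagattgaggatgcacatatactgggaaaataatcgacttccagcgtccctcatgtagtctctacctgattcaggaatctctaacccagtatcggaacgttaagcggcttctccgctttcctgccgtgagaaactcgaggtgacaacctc
NDUFAB1, chr16:23596317-23596566, minus strand: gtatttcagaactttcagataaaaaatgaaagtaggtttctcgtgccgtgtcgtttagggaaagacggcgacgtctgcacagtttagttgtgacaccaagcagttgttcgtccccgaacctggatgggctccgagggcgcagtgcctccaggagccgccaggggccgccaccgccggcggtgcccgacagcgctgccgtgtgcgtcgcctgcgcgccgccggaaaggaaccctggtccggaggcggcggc
NDUFS7, lowest core subunit, chr19:1383657-1383906, plus strand: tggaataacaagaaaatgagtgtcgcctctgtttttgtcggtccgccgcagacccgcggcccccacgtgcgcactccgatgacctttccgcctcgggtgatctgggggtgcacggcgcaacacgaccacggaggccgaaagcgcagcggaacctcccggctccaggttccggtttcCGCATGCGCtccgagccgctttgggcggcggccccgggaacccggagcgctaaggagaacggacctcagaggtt
NDUFAF4, highest gene, chr6:96897892-96898141, minus strand: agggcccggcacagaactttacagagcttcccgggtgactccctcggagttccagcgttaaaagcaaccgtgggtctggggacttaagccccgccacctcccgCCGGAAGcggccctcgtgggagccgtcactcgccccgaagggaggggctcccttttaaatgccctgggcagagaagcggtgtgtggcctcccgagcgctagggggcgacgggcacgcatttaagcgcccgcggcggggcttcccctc
In these windows NDUFS7 held an NRF1 match on the reverse strand that begins 74 bases before the start, and NDUFAF4 an ETS match that begins 147 bases before it. Those of NDUFB3 and NDUFAB1 held no match to any of the 4 motifs.

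Most complex I transcripts were lower in shEIF3F. TPM was below the control in 41 of the 47 genes and above it in 6. The summed TPM of the 47 genes was 15984 in shCON and 7888 in shEIF3F, 49.4% of the control, or 1.61% and 0.793% of all TPM listed. Log2 ratios were taken as log2((shEIF3F TPM + 1)/(shCON TPM + 1)), and a gene at -1 or less counted as at least 2-fold lower, a rule of size and not a test. By this rule 17 of the 47 genes (36.2%) were at least 2-fold lower, against 25.6% of all 13311 genes whose mean TPM was at least 1. At least 2-fold higher was 1 gene, NDUFAF4, where 8.44% of all genes were. All 47 genes passed the minimum of 1 TPM. Their median log2 ratio was -0.74 and that of all genes -0.36. In bulk libraries such as these, fewer cells of a type and less RNA per cell cannot be told apart.

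**Figure D1:**
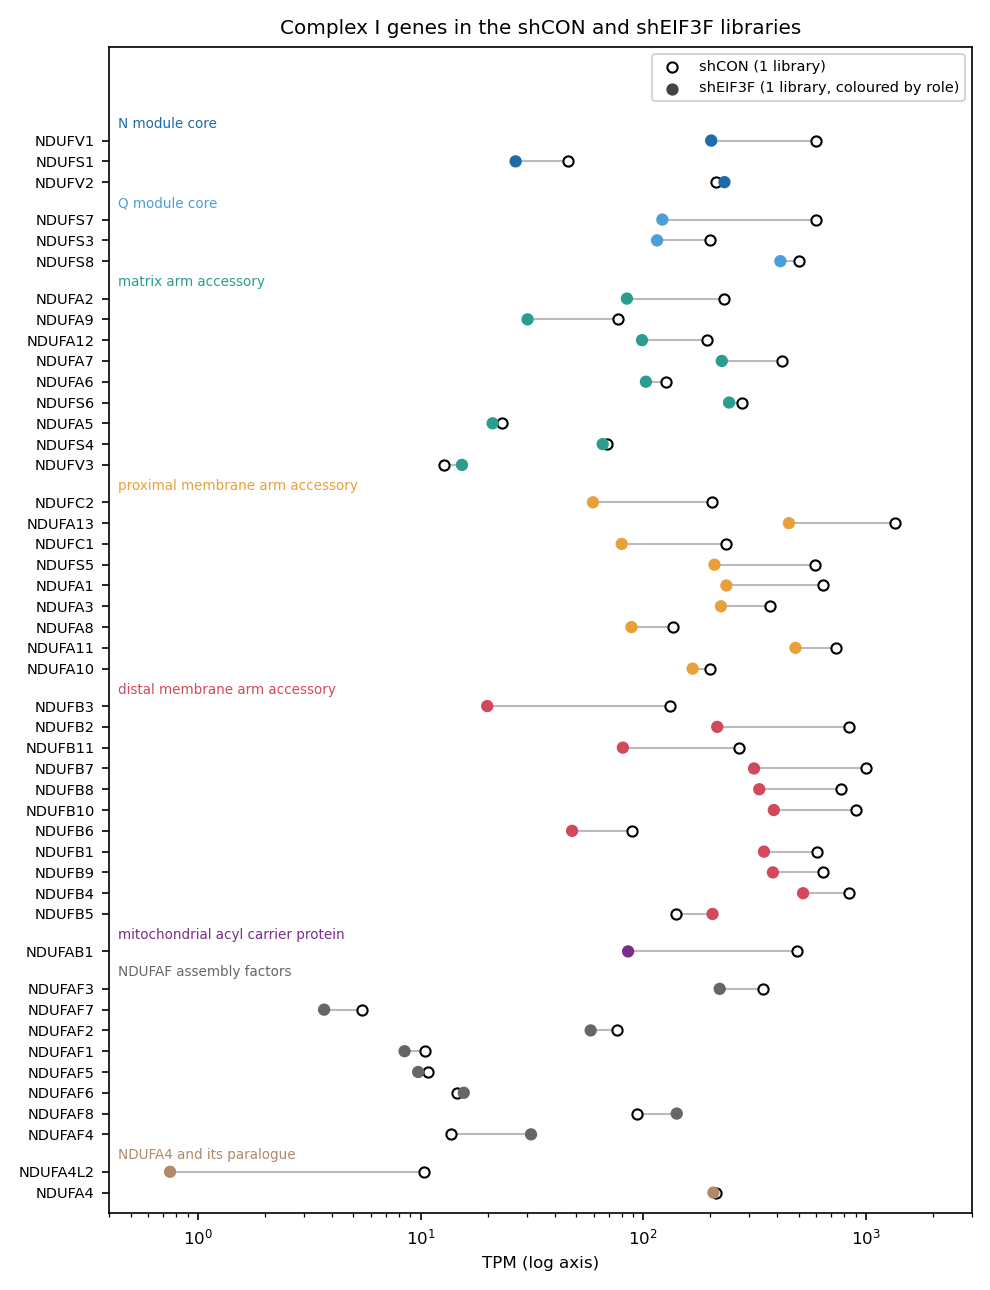
TPM of 46 of the 47 genes on a log axis, grouped by role, with shCON as open circles and shEIF3F as filled circles, 1 library each and no error bars. NDUFB3 (132 and 19.9 TPM) and NDUFAB1 (490.1 and 85.6 TPM) show the longest lines among the subunits, and NDUFAF4 (13.7 and 31.4 TPM) runs the other way.

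The shift of all genes moved with the scaling. Centring on the median of all genes left 14 of the 47 genes (29.8%) at least 2-fold lower, against 16.0% of all genes, and 1 at least 2-fold higher, against 14.7%. On that scale 32 of the 47 genes were below 0 and 15 above. Rescaling both libraries without their 100 most abundant genes gave 14 lower and 2 higher, where 16.1% and 14.8% of all genes were. Ratios also followed the GC content of the transcripts in all genes (Spearman's rho -0.32 over 13196 genes, a description only, since genes do not replicate each other). With ratios centred within bins of GC content, 10 of the 47 genes (21.3%) were at least 2-fold lower, against 13.9% of all genes, and 2 higher, against 13.3%. NDUFB3, NDUFAB1, NDUFS7, NDUFB2, NDUFC2, NDUFC1, NDUFS5, NDUFA2 and NDUFA4L2, 9 genes, were at least 2-fold lower in all 4 forms.

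The nuclear core subunits carry the electron path, and they differed widely among themselves. NDUFV1, which binds NADH and the flavin, stood at 599.4 TPM in shCON against 202 in shEIF3F (log2 ratio -1.56). Its partner in the flavoprotein part, the iron-sulfur subunit NDUFV2, stood at 213 and 232 TPM (0.12). The NDUFV1 to NDUFV2 ratio of TPM was thus 2.81 in shCON and 0.872 in shEIF3F, although the complex holds 1 copy of each protein. NDUFS1, the largest core subunit, was at 46.0 and 26.7 TPM (-0.76).

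The Q module showed a similar divergence. NDUFS7, whose iron-sulfur cluster hands electrons to ubiquinone, was at 599 TPM in shCON against 122 in shEIF3F (log2 ratio -2.29). NDUFS8, which carries the clusters before it in the path, was at 501 and 413 TPM (-0.28). Their TPM ratio went from 1.19 to 0.295. NDUFS3, a further core subunit of the module, stood between them in log2 ratio, at 199 and 115 TPM (-0.78). Of the 7 core genes 2 (28.6%) were at least 2-fold lower, NDUFV1 and NDUFS7, a share near the 25.6% of all genes. NDUFV1 was within 2-fold once ratios were centred within GC bins (-0.85), and NDUFS7 was not (-1.12). NDUFS8 was above 0 after centring on all genes (0.080) and within GC bins (0.66).

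Accessory subunits of the matrix arm lay near all genes. Their median log2 ratio was -0.30, and 2 of 9 (22.2%) were at least 2-fold lower, against 25.6% of all genes. NDUFA2, a thioredoxin-fold subunit of the N module, was at 229.9 TPM in shCON against 84.6 in shEIF3F (-1.43). NDUFA9, a Q module subunit that binds a nucleotide, was at 77.5 and 30.3 TPM (-1.33), but within 2-fold after centring on all genes (-0.97). It shares exon bases with AC005833.1 on the same strand, listed at 57.2 and 84.1 TPM (0.55). How reads were divided between these entries was not tested. NDUFS4 and NDUFS6, N module subunits known from inherited complex I deficiency, stood close to the control, at 69.0 and 65.8 TPM (-0.066) and at 277 and 243 TPM (-0.19). NDUFA5 (-0.13), NDUFA6 (-0.30), NDUFA7 (-0.89) and NDUFA12 (-0.96) were lower by less than 2-fold, and NDUFV3, the least abundant subunit in both libraries, was at 12.8 and 15.4 TPM (0.25). After centring on all genes the median of the 9 was 0.061, with NDUFS4 (0.29), NDUFA5 (0.23), NDUFS6 (0.17) and NDUFA6 (0.061) above 0.

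Accessory subunits of the membrane arm had lower values. Those of the proximal part, next to the matrix arm, had a median log2 ratio of -1.44. At least 2-fold lower were 5 of 9 (55.6%), against 25.6% of all genes. NDUFC2 was at 203 TPM in shCON against 59.5 in shEIF3F (-1.75), and NDUFC1, which lies beside it, at 236 and 80.1 TPM (-1.55). NDUFA13, also known as GRIM-19 and the most abundant subunit in shCON, was at 1357 and 452 TPM (-1.58). The cysteine-rich intermembrane-space subunit NDUFS5 was at 591 and 209 TPM (-1.49), and NDUFA1, a small single-pass membrane subunit, at 644 and 237 TPM (-1.44). The other 4 proximal genes were within 2-fold: NDUFA3 (-0.73), NDUFA8 (-0.61), NDUFA11 (-0.60) and NDUFA10 (-0.25), the last with the fold of a nucleoside kinase. The 5 lower genes were also at least 2-fold lower after centring on all genes. NDUFA13 (-0.84) and NDUFA1 (-0.95) were within 2-fold after centring within GC bins. NDUFA10 was above 0 after centring on all genes (0.11), and NDUFA11 within GC bins (0.34).

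The NDUFB genes encode accessory subunits of the distal membrane arm, at the end far from the matrix arm. Their median log2 ratio was -1.22, with 6 of 11 (54.5%) at least 2-fold lower, against 25.6% of all genes. NDUFB3 was at 132 TPM in shCON against 19.9 in shEIF3F (-2.67), the lowest ratio of any subunit. NDUFB2 was at 842 and 215 TPM (-1.96) and NDUFB11 at 268 and 81.1 TPM (-1.72). NDUFB7 was at 999.6 and 315 TPM (-1.66), NDUFB8 at 775 and 332 TPM (-1.22), and NDUFB10 at 900.1 and 386 TPM (-1.22). NDUFB11 (-0.998), NDUFB7 (-0.50), NDUFB8 (-0.73) and NDUFB10 (-0.50) were within 2-fold when centred within GC bins, NDUFB11 by a narrow margin. NDUFB8 (-0.86) and NDUFB10 (-0.86) were within 2-fold also after centring on all genes. NDUFB4 was the most abundant subunit in shEIF3F, at 844 and 523 TPM (-0.69). NDUFB5 was the exception in direction, at 141 and 205 TPM (0.54). NDUFB1 (-0.79), NDUFB6 (-0.88) and NDUFB9 (-0.74) lay between.

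NDUFAB1, the mitochondrial acyl carrier protein, has a second role in fatty acid synthesis inside mitochondria and is present in both arms of the complex. It stood at 490.1 TPM in shCON against 85.6 in shEIF3F (log2 ratio -2.50), and at -2.21 when centred within GC bins. Other genes of mitochondrial fatty acid and lipoic acid synthesis had a median of 0.0080, with 2 of 8 at least 2-fold lower, a share near the 25.6% of all genes. These were the malonyl transferase MCAT at 45.4 and 16.0 TPM (-1.45) and the enoyl reductase MECR at 45.1 and 15.9 TPM (-1.45). Within GC bins both were inside 2-fold (-0.74 and -0.96). The lipoyl transferase LIPT1 lay on the other side, at 1.45 and 3.73 TPM (0.95). After centring on all genes 3 of the 8 were at least 2-fold higher, against 14.7% of all genes. They were LIPT1 (1.31), LIPT2 (1.19) and LIAS (1.02), the last pair named after their values were seen. LIAS was inside 2-fold within GC bins (0.85).

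**Figure D2:**
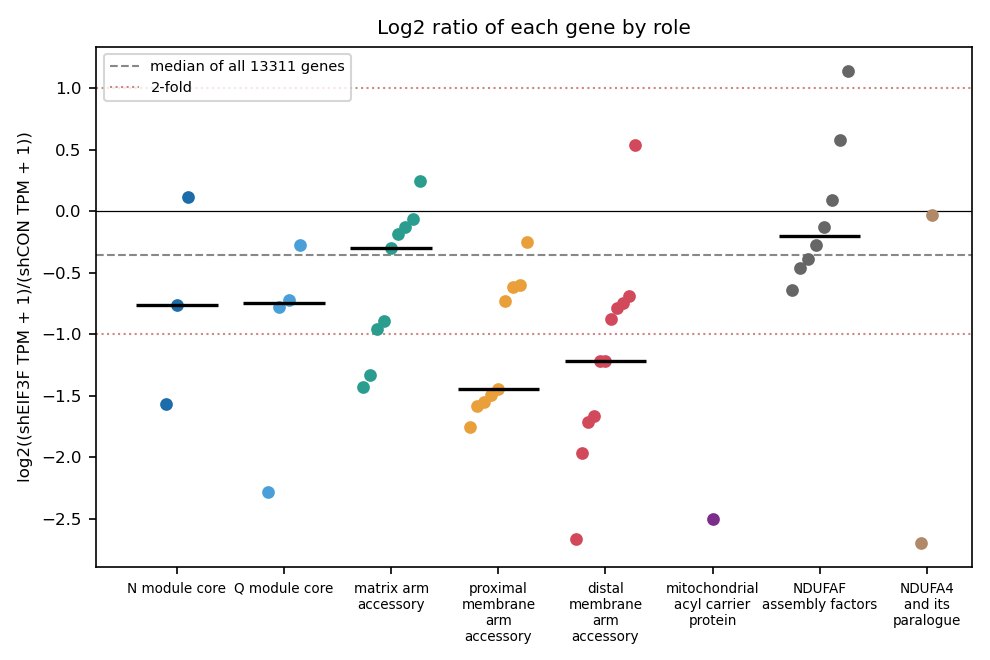
Log2 ratio of each gene (1 point per gene, from 1 library per group) by role, with the median of each role of more than 2 genes as a bar, the median of all 13311 genes as a dashed line and 2-fold as dotted lines. The bars lie at -1.44 and -1.22 for the membrane arm and at -0.30 and -0.20 for the matrix arm accessory subunits and the NDUFAF assembly factors.

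The membrane and matrix arms thus differed in their medians, at -1.22 over 20 membrane arm genes and -0.74 over 16 matrix arm genes, NDUFAB1 left out. At least 2-fold lower were 11 of 20, a share above the 25.6% of all genes, and 4 of 16, a share near it. After centring within GC bins the counts were 5 of 20 and 3 of 16, both shares above the 13.9% of all genes. The medians were then -0.66 and -0.36. With 1 library per group this difference has no test. In both libraries the membrane arm genes were also the more abundant, with a median of 597 and 219 TPM against 206 and 109 TPM.

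The subunits, which the complex holds at 1 copy each apart from NDUFAB1, covered a wide range of TPM in both libraries. The range was 12.8 to 1357 TPM in shCON, a 106-fold span, and 15.4 to 523 TPM in shEIF3F, a 34.1-fold span. The SD of log2 TPM over the 37 subunits was 1.55 in shCON and 1.40 in shEIF3F. Lower ratios went with higher control levels (Spearman's rho -0.40 over 37 subunits), a relation in which the shCON value enters both measures. The order of abundance changed. NDUFS8 moved from rank 14 to rank 4 of the 47 genes, NDUFA11 from 7 to 2, NDUFB2 from 5 to 17 and NDUFAB1 from 15 to 29. Across the subunits log2 TPM in the libraries had a Spearman's rho of 0.84.

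The NDUFAF assembly factors did not share the lower ratios of the subunits. None of 8 was at least 2-fold lower, against 25.6% of all genes. Their median log2 ratio was -0.20, where that of all genes was -0.36. After centring on all genes their median was 0.15. NDUFAF4, which acts with NDUFAF3 on the early Q module intermediate, stood at 13.7 TPM in shCON against 31.4 in shEIF3F (1.14). NDUFAF3 itself was at 344 and 221 TPM (-0.64), so the partners differed in direction, except within GC bins, where NDUFAF3 was at 0.30. NDUFAF4 was at least 2-fold higher in all 4 forms of scaling, but at 0.96 with a pseudocount of 5 TPM in place of 1.

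NDUFAF8 and NDUFAF5 act together on NDUFS7, in which NDUFAF5 hydroxylates an arginine. NDUFAF8 was at 94.2 and 142 TPM (0.58) and NDUFAF5 at 10.8 and 9.76 TPM (-0.13), while their target NDUFS7 was the lowest core subunit. NDUFAF8 was within 2-fold as deposited and reached 2-fold higher after rescaling (1.01), within GC bins (1.30) and within bins of mean TPM (1.18). NDUFAF7, a methyltransferase, was at 5.45 and 3.69 TPM (-0.46), NDUFAF2, a paralogue of NDUFA12 that acts at a late step, at 76.5 and 58.1 TPM (-0.39), NDUFAF1, of the membrane arm assembly complex, at 10.5 and 8.48 TPM (-0.28), and NDUFAF6 at 14.6 and 15.6 TPM (0.090). After centring on all genes NDUFAF1 (0.080) and NDUFAF5 (0.23) were above 0.

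Of 12 assembly factors with other names, 3 were at least 2-fold lower, a share near the 25.6% of all genes, and 0 were higher. Their median log2 ratio was -0.47. DMAC1, a factor of the distal membrane arm, was at 102 TPM in shCON against 13.4 in shEIF3F (-2.84). ACAD9, the acyl-CoA dehydrogenase relative that works with NDUFAF1, was at 44.5 and 8.65 TPM (-2.24), and FOXRED1, an oxidoreductase needed to assemble the complex, at 96.2 and 24.5 TPM (-1.93). All 3 were at least 2-fold lower after centring on all genes (-2.48, -1.88 and -1.57) and within GC bins (-2.85, -1.83 and -1.48). TIMMDC1, a membrane arm factor named after its value was seen, lay on the other side, at 63.8 and 111 TPM (0.79). It was at least 2-fold higher after centring on all genes (1.15), but not within GC bins (0.90).

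NDUFA4 stood near its control level, and NDUFA4L2 was lower. NDUFA4 was at 212 and 207 TPM (log2 ratio -0.033). NDUFA4L2, a known target of hypoxia-inducible factor, was at 10.4 TPM in shCON against 0.75 in shEIF3F (-2.70). At such low levels the ratio moved with the pseudocount, to -3.62 with 0.1 TPM and -1.42 with 5 TPM, and it was -1.77 within GC bins. It shares exon bases with SHMT2 on the opposite strand, which stood at 601.5 and 129 TPM (-2.21). The use of strand in the authors' counting is not given in the sources used here, so reads of the pair cannot be told apart.

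The subunits encoded in mitochondrial DNA, which form the core of the membrane arm, had a median above the control. Of 7, 1 was at least 2-fold lower and 1 higher, against 25.6% and 8.44% of all genes, with a median log2 ratio of 0.40. MT-ND3 was at 6901 TPM in shCON against 2841 in shEIF3F (-1.28) and MT-ND4L at 5367 and 2940 TPM (-0.87), whereas MT-ND4 was at 2268 and 3807 TPM (0.75) and MT-ND6 at 471 and 1017 TPM (1.11). After centring on all genes the count was 0 lower and 3 higher, against 16.0% and 14.7% of all genes. MT-ND3 was then within 2-fold (-0.92), and MT-ND6 (1.47), MT-ND4 (1.10) and MT-ND1 (1.09) were at least 2-fold higher. MT-ND1 is named for that count, after its value was seen. Together these genes stood at 87.5% of the control TPM, against 47.3% for the 37 nuclear subunits. Within GC bins MT-ND3 was at least 2-fold lower (-1.29), and MT-ND4 was inside 2-fold (0.86).

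**Figure D3:**
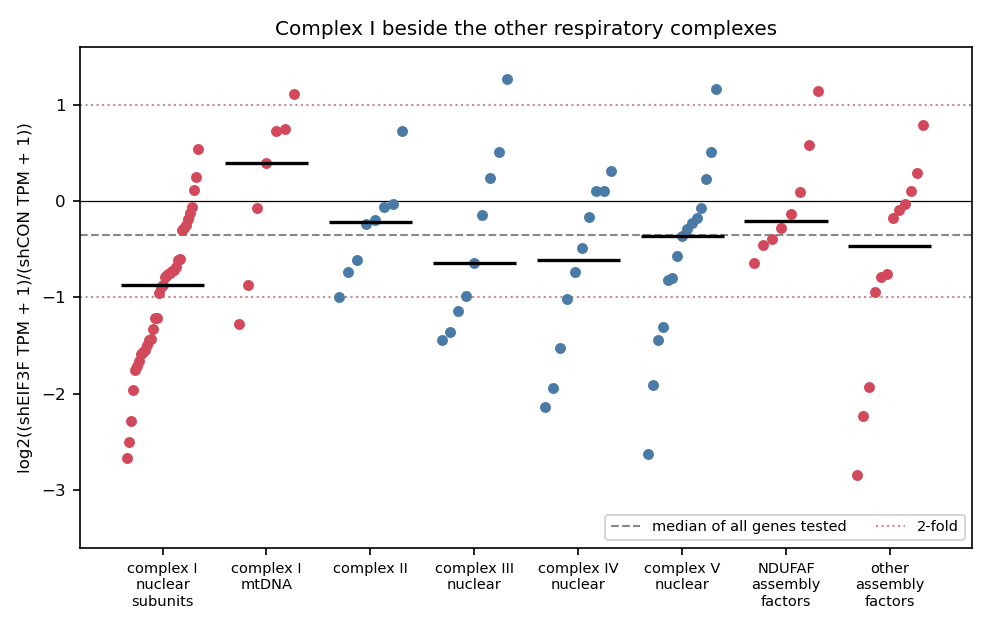
Log2 ratio of each gene (points, 1 library per group) with the median of each list (bars), for complex I in red and complexes II to V in blue. The bar of the 37 nuclear complex I subunits is at -0.88, below those of the other nuclear lists, which lie between -0.65 and -0.20, and the mitochondrial complex I genes are at 0.40.

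Beside the other respiratory complexes, the nuclear complex I subunits had the lowest median, -0.88 over 37 genes. It was -0.22 over 8 complex II genes, which include assembly factors, -0.65 over 9 of complex III, -0.61 over 10 of complex IV and -0.36 over 15 of complex V. At least 2-fold lower were 16 of 37 complex I subunits (43.2%) and 12 of 42 genes of complexes II to V (28.6%). Of all genes 25.6% were. Within GC bins these were 9 (24.3%) and 7 (16.7%), against 13.9% of all genes. The medians within GC bins were -0.56 for complex I, -0.0092 for II, 0.076 for III, -0.47 for IV and -0.16 for V. Strongly lower genes were not limited to complex I: ATP5MC1, a gene for the c-ring of ATP synthase, was at 1125 and 181 TPM (-2.63) and the cytochrome oxidase subunit COX8A at 2068 and 469 TPM (-2.14). UQCRB of complex III, at 162 and 392 TPM (1.27), went the other way, as NDUFB5 did. No test of the difference between complexes was possible with 1 library per group.

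Matrix arm subunits need iron-sulfur clusters, and the genes that make those clusters went both ways. Of 15, 3 were at least 2-fold lower and 2 higher (median -0.69), against 25.6% and 8.44% of all genes. After centring on all genes 3 were lower and 4 higher, against 16.0% and 14.7% of all genes. IBA57 was at 10.7 TPM in shCON against 0.85 in shEIF3F (-2.66), and BOLA3 at 307 and 70.6 TPM (-2.10), both of which act late in cluster delivery. LYRM4, which stabilises the cysteine desulfurase and binds the acyl carrier protein NDUFAB1, was at 11.2 and 44.4 TPM (1.89). Among 12 measured regulators of mitochondrial genes, 3 were at least 2-fold lower, a share near the 25.6% of all genes. They were MYC at 228 and 36.7 TPM (-2.60), the orphan receptor ESRRA at 118 and 31.0 TPM (-1.90) and the coactivator PPARGC1B at 4.98 and 0.88 TPM (-1.67). PPARGC1B was within 2-fold with a pseudocount of 5 TPM (-0.76), and ESRRA when centred within GC bins (-0.96). After centring on all genes 2 regulators were at least 2-fold higher, GABPB1 (1.14) and YY1 (1.01), where 14.7% of all genes were. Within GC bins both were inside 2-fold (0.82 and 0.94). Of the factors whose motifs were searched, NRF1 was at 9.14 and 4.84 TPM (-0.80) and YY1 at 17.8 and 28.5 TPM (0.65). GABPB1 and YY1 were chosen after their values were seen.

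**Figure D4:**
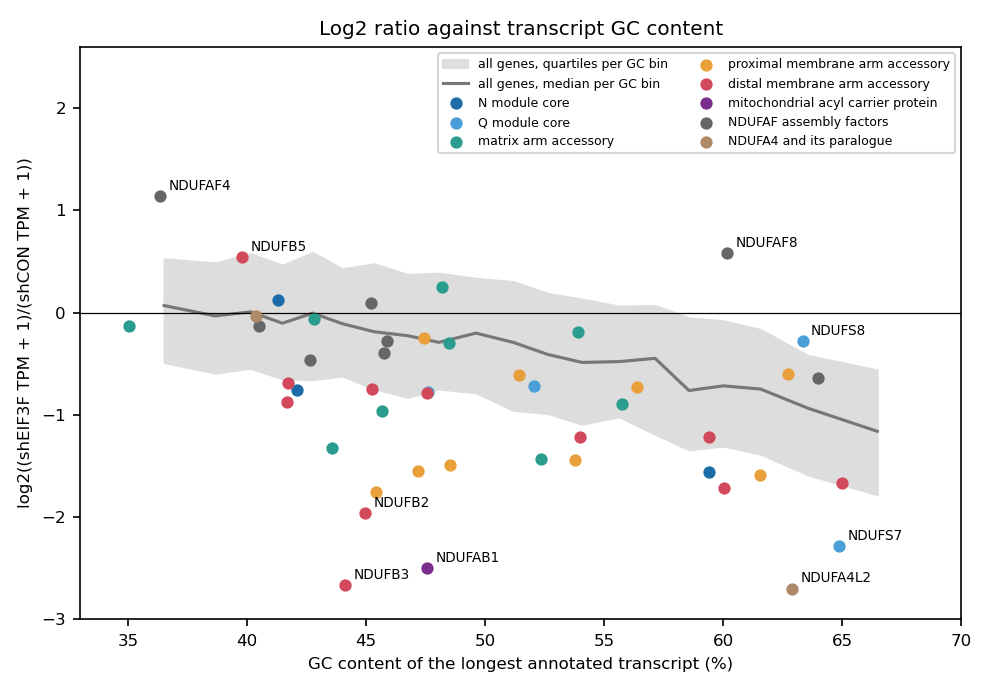
Log2 ratio against the GC content of the longest annotated transcript for the 47 genes (points coloured by role), with the median and quartiles of all genes in 20 GC bins as a line and a grey band. NDUFB3, NDUFAB1 and NDUFB2 lie far below the band at 44.1% to 47.6% GC, and NDUFS8 and NDUFAF8 lie above it at 63.3% and 60.2% GC.

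Transcripts of the 47 genes were short, with a median length of 1263 bases against 2889.5 in all genes, and of ordinary GC content, with a median of 47.6% against 50.5%. Among the 47 genes the log2 ratio went with GC content at a Spearman's rho of -0.40 and with length at 0.24. The lowest subunit, NDUFB3, had 44.1% GC, where the median of all genes was near -0.11. NDUFS7 and NDUFS8, which differed most within the Q module, had 64.9% and 63.3% GC. Centred within GC bins, 37 of the 47 genes were below 0 and 10 above.

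In the 300-base promoter windows, which reach 50 bases past the start, NRF1 matches stood in 6 of the 41 genes found (14.6%), against 2.34% of the 27305 genes in the table. A YY1 match stood in 7 (17.1%), against 2.14%, an ETS match in 7 (17.1%), against 12.2%, and CCAAT in 12 (29.3%), against 39.7%. Over the 15843 protein-coding genes of the table the shares were 3.11% for NRF1, 3.21% for YY1, 16.5% for ETS, close to that of the complex I genes, and 42.1% for CCAAT. A gene with several entries counted once if any held the motif. Short pieces show the NRF1 and YY1 matches in capitals with 10 bases on each side (GRCh38.p14, on the gene's strand).
NDUFA5, NRF1, chr7:123557958-123557986, minus strand: tatgcccatcGCGCATGCGtcaatttttc
NDUFA8, NRF1, chr9:122159765-122159793, minus strand: gttgccggatGCGCATGCGcaggcgccgt
NDUFAF5, NRF1, chr20:13785014-13785042, plus strand: agccgcgctgGCGCATGCGcacaaaaagc
NDUFB4, NRF1, chr3:120596167-120596195, plus strand: agagcacttcGCGCATGCGcatatcaccg
NDUFS6, NRF1, chr5:1801351-1801379, plus strand: cagaagccgtGCGCATGCGttagcgctaa
NDUFS7, NRF1, reverse, chr19:1383823-1383851, plus strand: ttccggtttcCGCATGCGCtccgagccgc
NDUFA6, YY1, chr22:42090729-42090757, minus strand: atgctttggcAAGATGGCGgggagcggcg
NDUFA7, YY1, chr19:8321343-8321371, minus strand: tcgcggacggAAGATGGCGtccgccaccc
NDUFA9, YY1, chr12:4649114-4649142, plus strand: attgtgggaaAAGATGGCGgctgccgcac
NDUFAF8, YY1, chr17:81239317-81239345, plus strand: ggacggacctAAGATGGCGgcctccaggg
NDUFB8, YY1, chr10:100529836-100529864, minus strand: gaagaaggtgAAGATGGCGgtggccaggg
NDUFS4, YY1, chr5:53560650-53560678, plus strand: tgcctgcagcAAGATGGCGgcggtgtcaa
NDUFS7, YY1, chr19:1383914-1383942, plus strand: ggccgaggccAAGATGGCGgtgctgtcag
The 7 YY1 matches shown all lay on the gene's own strand and began at positions 11 to 26, counting the start as 1.

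The NRF1 match did not go with lower ratios. Of the 6, 1 (NDUFS7) was at least 2-fold lower, against 14 of the 35 without and 25.6% of all genes. The median log2 ratio of the 6 was -0.40, against -0.79 over the 35. Of the 7 with a YY1 match 3 were at least 2-fold lower (NDUFS7, NDUFA9 and NDUFB8), against 12 of the 34 without. The medians were -0.89 with the YY1 match and -0.75 without. For the ETS motif the medians were -0.78 and -0.71, and for CCAAT, which 12 genes held, -0.34 and -0.88. A match is a run of letters and was not tested for binding.

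Lower ratios went with shared exon bases. In GENCODE release 29, 26 of the 47 genes share exon bases with another gene listed in the table, 21 of them with a gene on the opposite strand. Of the 26, 13 (50.0%) were at least 2-fold lower, with a median log2 ratio of -1.05. Of the 21 genes without such overlap 4 (19.0%) were, with a median of -0.28, namely NDUFAB1, NDUFB7, NDUFS5 and NDUFB10, and 1 was higher, NDUFAF4. Among all genes the shares at least 2-fold lower were 25.7% of 6783 with overlap and 25.4% of 6421 without, so no such split was seen there. This split was made after the values were seen, and the part of overlapping reads in the ratios was not tested. The lower values of NDUFB3, NDUFS7, NDUFB2, NDUFC2, NDUFC1 and NDUFA2 belong to genes with overlap. Some of their partners were hardly listed: MGARP beside NDUFC1 at 0.1 and 0.2 TPM, and AC005329.1 beside NDUFS7 at 1.51 and 1.61 TPM. Others stood higher: FAM126B beside NDUFB3 at 91.3 and 73.8 TPM (-0.30), and ADCK2 beside NDUFB2 at 24.9 and 11.6 TPM (-1.04). NDUFA2 overlaps IK at 37.0 and 38.3 TPM (0.046) and TMCO6 at 22.0 and 5.9 TPM (-1.74).

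NDUFC2 shares exons with the readthrough gene NDUFC2-KCTD14, listed at 15.9 and 0.87 TPM (-3.18). NDUFS1 overlaps EEF1B2 at 940 and 1896 TPM (1.01), and NDUFA7 overlaps RPS28 at 1162 and 4849 TPM (2.06), both on the opposite strand. NDUFA7 also shares exon bases with AC010323.1 on the same strand, listed at 92.0 and 0.01 TPM (-6.52). The ratio of NDUFA7 thus depends on how reads were divided between these entries, which was not tested. With neighbours below a mean of 1 TPM left out, 20 pairs consist of one of the 47 genes and a gene that starts within 1000 bases of it on the other strand. The complex I gene was at least 2-fold lower in 6 of these 20 pairs and the neighbour in 6, where 25.6% of all genes were. The neighbour was at least 2-fold higher in 3, where 8.44% of all genes were. Both genes were at least 2-fold lower in 2 pairs. In the first, NDUFB11 lies beside the splicing regulator RBM10 at 32.8 and 9.52 TPM (-1.68), and in the other NDUFB8 beside HIF1AN, the factor inhibiting HIF, at 9.77 and 3.35 TPM (-1.31). The neighbours SHMT2, MGARP, AC005329.1, NDUFC2-KCTD14, EEF1B2, RPS28, RBM10 and HIF1AN were chosen after their values were seen. So were AC005833.1, AC010323.1, FAM126B, IK, TMCO6 and ADCK2. NDUF pseudogenes made up 59 symbols, of which 57 were listed at 0 in both libraries. Genes with such copies, among them NDUFB4 and NDUFA5 with 12 each and NDUFS5 with 6, are uncertain to the extent that reads were shared.

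Markers of prostate epithelium were present in both libraries but did not stand at one level. Of the 8, 3 were lower by 2-fold or more and 2 were higher by as much, against 25.6% and 8.44% of all genes. The keratin KRT8 was at 301 and 347 TPM. The secreted protease KLK3 was at 9.71 and 1.94 TPM (-1.87), and the surface antigens FOLH1 at 146 and 482 TPM (1.72) and EPCAM at 17.5 and 60.5 TPM (1.73). Of 8 markers of blood, endothelial, fibroblast and basal cells, 2 reached a mean of 1 TPM, CD68 at 1.2 and 5.34 TPM and COL1A1 at 2.43 and 0.83 TPM, and VWF and KRT5 were listed at 0 in both.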

How the data were processed

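RNA-seq of 22Rv1 cells was used, with 1 shCON and 1 shEIF3F library. The authors deposited 1 TPM value per gene and library, given to 2 decimals. Per the submitters' processing notes, CASAVA, HISAT2 and hg19 were involved, with no versions. Not given in the sources used here are the gene counter, its annotation, its use of strand and any filter. Read numbers cannot be had from TPM, which leaves depth unknown and allows no interval or detection limit. Columns were matched to groups by the sample descriptions.

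Of 58884 entries, 27 with symbols turned into dates were left out, and 1531 entries that repeated a symbol were added to its first entry. Symbols of small RNA genes (5538) were left out of all gene-wide values. Log2 ratios used a pseudocount of 1 TPM and were kept for the 13311 genes whose mean TPM was at least 1. Transcript length and GC content were read from the longest GENCODE release 29 transcript of each gene, protein-coding where there is one, and known for 99.1% of these genes, and exon overlaps come from the same release, which describes GRCh38. Promoters are from RefSeq (GRCh38.p14). NDUFA4 and NDUFA4L2 were found there by gene ID under newer symbols. NDUFAF6, NDUFB5, NDUFB9, NDUFC2 and NDUFS5 have no promoter entry here. Motifs were searched on both strands.

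The genes, roles and lists were chosen with earlier results of these data known. Named were EIF3F, the 47 genes, and of each other list up to 4 genes with the largest absolute log2 ratio, apart from genes named as later choices; the cell type markers KRT8, VWF and KRT5 also fall outside this rule. Values of 1 of the 47 genes are not reported here, though counts and medians include it. Alternatives were other pseudocounts, other minimum levels, centring, rescaling and the most abundant entry per symbol, and bins of transcript length were added after the data were seen. Python 3.11.15, NumPy 2.4.6, pandas 2.3.3, SciPy 1.17.1 and matplotlib 3.10.9 were used, and the ratio step was tested on simulated data.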

Additional observations from a re-analysis of the deposited data

How the results depend on the processing

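The count of genes at least 2-fold lower was 17 as deposited and 10 with ratios centred within GC bins, and lay between 14 and 17 under the other alternatives. The count at least 2-fold higher was 1 as deposited, 0 with a pseudocount of 5 TPM, and 2 after rescaling without the 100 most abundant genes, within GC bins and within bins of mean TPM. The median log2 ratio of the 47 genes, -0.74 as deposited, was -0.72 with a pseudocount of 5 TPM, -0.75 at a mean of 5 TPM or more (46 genes), -0.39 after centring on all genes, -0.31 after rescaling, -0.49 within GC bins, -0.30 within bins of mean TPM and -0.37 within bins of transcript length. It was below 0 under every alternative run. No gene at least 2-fold lower or higher as deposited changed its sign under any of them. The bins of transcript length were chosen after the data were seen. No paired analysis was possible because each group has 1 library. Depth is unknown, so the precision of genes under about 10 TPM, such as NDUFAF7, cannot be stated.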
